A study of Mus musculus with 4 samples.

Results

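The small leucine-rich proteoglycans (SLRPs) Dcn, Bgn, Lum, Prelp, Fmod, Omd, Ogn, Aspn and Podn, together with the large proteoglycan versican (Vcan), were followed in a pair of mouse ovarian cancer cell lines. A probe was taken as a member when its RefSeq accession mapped to 1 of these 10 gene symbols (of 22911 on the array), with no use of its signal, which gave 13 of the 56605 probes that are not controls. ID8G cells, the parental line, are ID8 cells that express GFP. ID8 cells arose by spontaneous transformation of ovarian surface epithelium from C57BL/6 mice. GO2 cells were derived from ID8G cells by 2 rounds of intraperitoneal injection into syngeneic female C57BL/6J mice, each followed by sorting of CD45- GFP+ cells from the omental tumors and by culture. RNA from each line was hybridized to 2 Agilent arrays, and both lines were grown in the same medium with 4% FBS, insulin, transferrin and sodium selenite under 5% CO2. GO2 is a single selected line, both lines carry the GFP vector, and a line that was injected but not selected was not analysed here. The question of the comparison was which genes differ between the parental cells and cells selected for growth in the omentum.

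SLRPs are secreted proteins in which a core of leucine-rich repeats carries chains of chondroitin, dermatan or keratan sulfate. They bind fibrillar collagen and control how its fibrils assemble, and several of them also bind growth factors and cell surface receptors. Versican is instead a large chondroitin sulfate proteoglycan that binds hyaluronan and is cleaved by ADAMTS proteases. In most tissues these molecules are best known as products of fibroblasts and other stromal cells.

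In GO2 cells Prelp and Fmod were lower and Omd and Ogn were higher than in ID8G cells. Prelp fell 15.1-fold and Fmod 2.67-fold, whereas Omd was at least 3.23-fold and Ogn at least 11.7-fold higher. Dcn and Bgn, both widely expressed in connective tissue, stayed within 2-fold. Lum and Aspn were not well above background on any array. Of the 3 Vcan probes, 2 were called higher in GO2 cells and the brightest was not called. The dimmer of the 2 called probes had a bound of only 1.21-fold.

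Levels are given as log2 intensity relative to the 75th percentile of the same array, so that 0 is the 75th percentile, and a level of 1 probe is not comparable with that of another probe. Tested were probes for which both arrays of 1 line or of each line were well above background, and a probe was called when the adjusted p was below 0.05 and the difference reached 2-fold. Of all 28344 probes tested, 7.84% were called, with 4.51% higher and 3.34% lower in GO2 cells, and for 73.6% the values of the lines did not overlap. Replicate arrays of a line correlated with r = 0.997, and arrays of different lines with r = 0.967 to 0.968, across tested probes. For 2 against 2 arrays the smallest two-sided p of an exact permutation test is 0.333, so each p comes from the limma model over all tested probes. The labels do not say whether the replicates were separate cultures, so these p-values measure only the spread between arrays, which may be technical. All arrays were on 1 slide with the arrays of a line side by side, so position on the slide and cell line cannot be told apart.

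The labelled cell type was checked against markers. Of 9 markers of ovarian surface epithelium and mesothelium, 8 were well above background on all 4 arrays (Krt7 was not), among them Krt8, Krt18, Wt1 and Msln, while Krt19 was called 3.14-fold lower and Upk3b 2.11-fold higher in GO2 cells. Of 6 macrophage markers, Ptprc, Adgre1 and Lyz2 were well above background on no array, but Itgam (level 4.13 to 4.39), Csf1r (means 1.01 in ID8G and 1.23 in GO2 cells) and Cd68 (-1.41 to -1.08) were on all 4, as was the lymphocyte marker Cd3e (1.08 to 1.37). The fibroblast markers Thy1, Fap, Dpt, Pi16 and Postn were likewise well above background on no array, whereas the other 3 of the 8 fibroblast markers (Pdgfra, Pdgfrb and Col3a1) were called higher in GO2 cells. Because levels of different probes are not comparable, each sum given here compares arrays and is not an amount of a cell type. The summed linear level of the 8 fibroblast markers, in multiples of the 75th percentile, was 1.33 to 1.43 on the ID8G arrays and 21.9 to 24.5 on the GO2 arrays. Most of this sum was Col3a1, which is also counted among the fibrillar collagens, and the other 7 markers summed to 0.202 to 0.209 and 1.54 to 1.70. The summed level of the 9 ovarian surface and mesothelium markers was 664 to 671 on the ID8G arrays and 381 to 385 on the GO2 arrays. Most of this sum was Krt8, Krt18 and Krt19, with differences of -0.55, -0.81 and -1.65. Msln was also lower (-0.82), whereas Wt1, Upk1b and Lrrn4 changed little (-0.10, -0.01 and -0.04) and Upk3b rose. Of the smooth muscle and pericyte markers, Cnn1 alone was tested, and it was higher. That list summed to 0.170 to 0.205 in ID8G cells and 0.269 to 0.531 in GO2 cells, with Myh11, Des and Rgs5 well above background on no array. No macrophage, endothelial or lymphocyte marker was called. Of 4 adipocyte markers, Fabp4 was at least 6.28-fold lower, and Adipoq and Plin1 were well above background on no array. Lep, the remaining marker, was well above background on all 4 arrays and was not called (difference -0.04). Fewer cells of a type and less RNA per cell cannot be told apart in these samples, and the part of such cells in the differences of the members was not tested.

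The promoters of the 4 called members are shown because Prelp and Fmod, which were lower, are neighbors on chromosome 1, and Omd and Ogn, which were higher, are neighbors on chromosome 13. Each sequence holds the 250 bases before the transcription start from RefSeq (GRCm38.p6), 5' to 3' on the strand of the gene. Capitals mark matches to 6 motifs searched on both strands, namely the TATA box (TATAAA), the CCAAT box (CCAAT), the GC box (GGGCGG), the E-box of the Snail and Zeb kind (CAGGTG), the AP-1 site (TGANTCA) and the TEAD site (GGAATG). The regions are chr1:133921402-133921651 on the minus strand for Prelp, chr1:134037004-134037253 on the plus strand for Fmod, chr13:49582212-49582461 on the plus strand for Omd and chr13:49607765-49608014 on the plus strand for Ogn.
Prelp: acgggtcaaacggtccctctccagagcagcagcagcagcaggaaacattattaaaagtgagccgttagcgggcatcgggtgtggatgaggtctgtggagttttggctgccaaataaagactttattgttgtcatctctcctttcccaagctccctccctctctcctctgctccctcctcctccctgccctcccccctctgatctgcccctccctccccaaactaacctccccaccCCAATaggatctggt
Fmod: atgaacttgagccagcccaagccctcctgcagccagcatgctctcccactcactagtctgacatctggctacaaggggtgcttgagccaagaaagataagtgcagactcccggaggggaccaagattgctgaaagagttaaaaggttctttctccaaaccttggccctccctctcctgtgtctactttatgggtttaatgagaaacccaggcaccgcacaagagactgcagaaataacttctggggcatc
Omd: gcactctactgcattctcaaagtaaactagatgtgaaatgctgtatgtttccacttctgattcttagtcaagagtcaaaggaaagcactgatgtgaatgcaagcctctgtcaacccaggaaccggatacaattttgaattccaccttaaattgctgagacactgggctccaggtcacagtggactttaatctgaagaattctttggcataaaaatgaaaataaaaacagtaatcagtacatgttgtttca
Ogn: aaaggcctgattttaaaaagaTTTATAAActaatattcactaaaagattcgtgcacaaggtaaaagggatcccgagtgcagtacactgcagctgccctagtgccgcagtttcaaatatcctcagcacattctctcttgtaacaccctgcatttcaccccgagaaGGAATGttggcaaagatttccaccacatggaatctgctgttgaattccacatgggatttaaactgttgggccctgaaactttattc

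The matches below are matches of letters only, and whether they act in these promoters was not tested. The Prelp sequence held a match to the CCAAT box at position -15 from the start, a motif found in 33.8% of 32851 promoters of the same length. The Ogn sequence held overlapping TATA box matches on opposite strands at -229 and -227 (motif in 12.4% of promoters) and a TEAD match at -86 (12.6%). No match to any of the 6 motifs was found in the windows of Fmod and Omd. The GC content was 55.6% for Prelp and 51.2% for Fmod, against 38.4% for Omd, 42% for Ogn and a median of 52.4% over all promoters. Promoters were given for 8 of the 10 members.

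Of the 10 members, 7 were tested and 4 were called (57.1% of those tested, against 7.84% of all probes), when each gene was represented by its brightest probe. All 7 had an adjusted p below 0.05, as did 35.9% of all probes tested. In all 7 the lines did not overlap, as was so for 73.6% of all probes tested. Omd and Ogn passed the filter only through GO2 cells, so their place among the tested genes already required signal in that line. The plot of levels shows every probe on every array.

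**Figure D1:**
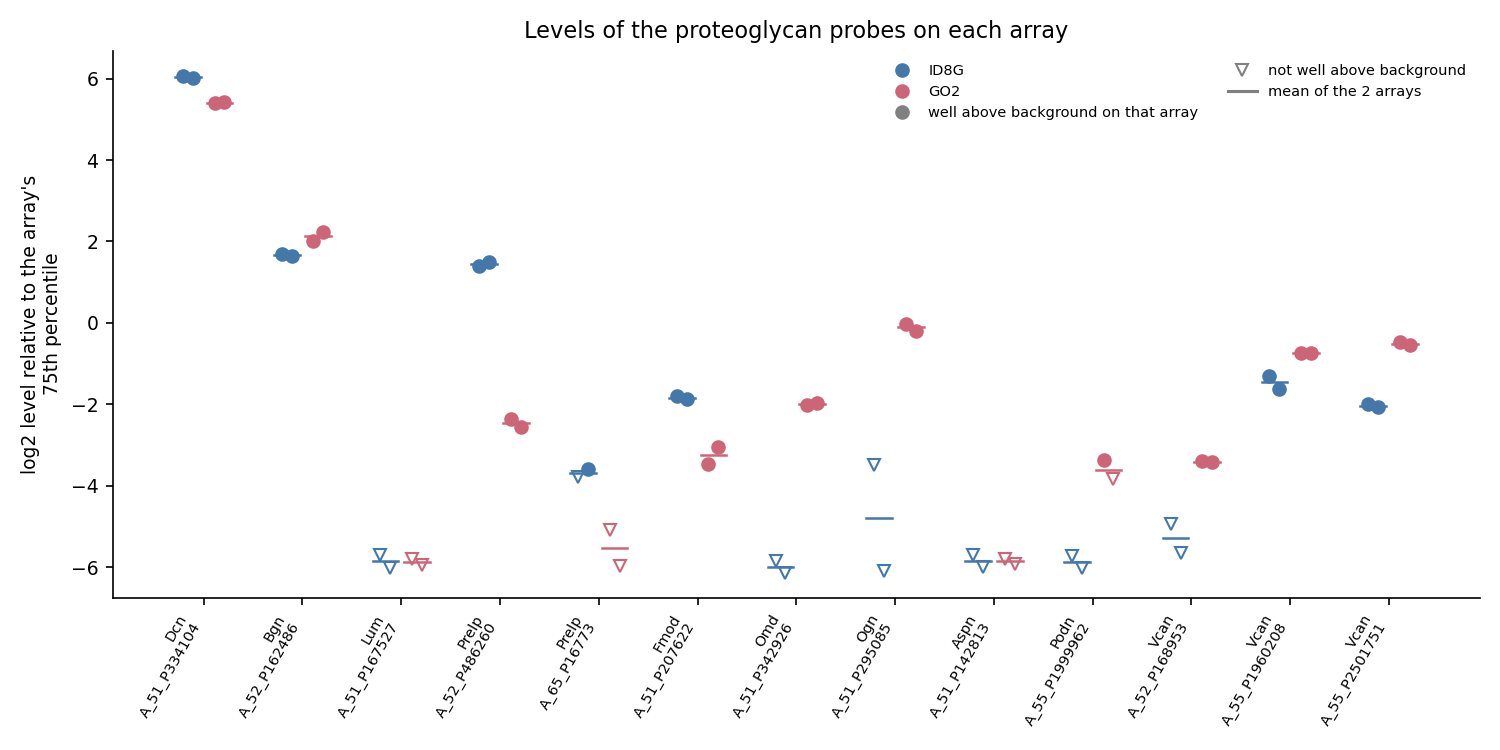
Log2 level of the 13 probes (vertical axis, relative to the 75th percentile of the array) on each of the 4 arrays, with ID8G in blue, GO2 in red, open triangles for values not well above background and a line at the mean of the 2 arrays. Prelp drops from 1.45 to -2.47 on average, whereas Omd and Ogn are open triangles in ID8G and filled points in GO2.

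The class I SLRPs decorin and biglycan carry chondroitin or dermatan sulfate chains. Dcn (decorin, which binds collagen and transforming growth factor beta) had a level of 6.07 and 6.01 in ID8G cells, and of 5.41 and 5.42 in GO2 cells. The GO2 values lay below both ID8G values. The difference was -0.63 (SE 0.05, limma adjusted p = 0.00308), which is 1.55-fold and was not called. Its linear intensity was 45480 and 43198 in ID8G cells against 26956 and 26767 in GO2 cells, and no spot was saturated.

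Bgn (biglycan, a relative of decorin that can act as a ligand of Toll-like receptors) had a level of 1.68 and 1.65 in ID8G cells and 2.01 and 2.24 in GO2 cells. The lines did not overlap, and the difference of 0.46 (SE 0.10, limma adjusted p = 0.0299) corresponded to 1.37-fold and was not called. The difference was 0.25 with spike-in scaling (limma adjusted p = 0.132), and the adjusted p lay between 0.0330 and 0.110 when 1 array was left out. Aspn (asporin, a class I member without glycosaminoglycan chains) was at -5.70 and -6.00 in ID8G cells and at -5.79 and -5.93 in GO2 cells. Its values overlapped and none was well above background, so no fold is given.

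The class II SLRPs Prelp, Fmod, Lum and Omd bind collagen, and several of them carry keratan sulfate chains. Prelp (prolargin, which anchors basement membranes to connective tissue) had a level of 1.40 and 1.49 in ID8G cells and -2.37 and -2.56 in GO2 cells. Both GO2 arrays lay far below both ID8G arrays. The difference was -3.92 (SE 0.09, limma adjusted p = 0.000226), or 15.1-fold lower, and ranked 18 from the lowest of the 28344 tested probes. In linear intensity this was 1787 and 1883 against 123 and 106. The second Prelp probe was well above background on 1 ID8G array only and was not tested, with levels of -3.78 and -3.59 in ID8G cells and -5.09 and -5.98 in GO2 cells. Its bound was at least 1.09-fold lower in GO2 cells, the same direction as the brighter probe.

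Fmod (fibromodulin, a regulator of collagen fibril growth and cross-linking) had a level of -1.81 and -1.87 in ID8G cells and -3.46 and -3.06 in GO2 cells. It was well above background on all 4 arrays, and the lines did not overlap. The difference was -1.42 (SE 0.15, limma adjusted p = 0.00545), or 2.67-fold lower. With normexp background correction it was -0.83 and no longer passed the 2-fold limit, and with limma treat, which tests against 2-fold, the adjusted p was 0.424.

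Omd (osteomodulin, a keratan sulfate proteoglycan first known from bone) went the other way. Its level was -5.85 and -6.14 in ID8G cells, where neither array was well above background, and -2.02 and -1.96 in GO2 cells, where both were. The bound was at least 3.23-fold higher in GO2 cells. The fitted difference of 4.01 became 1.57 with normexp and 1.69 with dim values raised to the floor of the array. Linear intensities were 11.7 and 9.48 in ID8G cells and 157 and 161 in GO2 cells. Lum (lumican, a corneal and dermal collagen organizer) was at -5.71 and -6.01 in ID8G cells and at -5.80 and -5.95 in GO2 cells, and was not well above background on any array.

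Ogn (osteoglycin or mimecan, a class III SLRP) had a level of -3.49 and -6.09 in ID8G cells, neither well above background, and -0.03 and -0.20 in GO2 cells. Both GO2 values were above both ID8G values, and the bound was at least 11.7-fold higher. The fitted difference was 4.68 (limma adjusted p = 0.0242). The ID8G arrays differed from each other by more than any other pair of replicate values among the members. The call was lost without GO2 replicate 1 (limma adjusted p = 0.110) or GO2 replicate 2 (0.103), with no filter on dim probes (0.102) and against a minimum difference of 2-fold (0.176). With dim values raised to the floor of the array, the difference was 3.54 and the adjusted p was 0.000365, and with normexp the difference was 2.68.

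Podn (podocan, a class V SLRP) was at -5.72 and -6.03 in ID8G cells and at -3.38 and -3.83 in GO2 cells. Only 1 GO2 array was well above background, so it was not tested, and its bound was at least 1.05-fold higher. Podn was called higher with no filter on dim probes and without GO2 replicate 2.

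Vcan was read by 3 probes that differed in size of response. The brightest, A_55_P1960208, had a level of -1.30 and -1.62 in ID8G cells and -0.73 and -0.73 in GO2 cells, a difference of 0.73 (SE 0.12, limma adjusted p = 0.0172), or 1.65-fold, that was not called. The probe A_55_P2501751 had a level of -2.00 and -2.08 in ID8G cells and -0.48 and -0.54 in GO2 cells, and was called 2.89-fold higher (difference 1.53, SE 0.06, limma adjusted p = 0.000483). The dimmest, A_52_P168953, was at -4.94 and -5.65 in ID8G cells, not well above background, and at -3.39 and -3.43 in GO2 cells. Its bound was at least 1.21-fold higher. The fitted difference was 1.89 (limma adjusted p = 0.00961), and it ranged from 0.27 to 1.89 over the settings that kept all arrays. With dim values raised to the floor it was 0.27 (limma adjusted p = 0.1325) and with normexp 0.60, and neither was called. No call was made with no filter on dim probes (limma adjusted p = 0.0550), limma treat (0.227) or the methods' t-test. Its call was lost without GO2 replicate 1 (limma adjusted p = 0.0614) or 2 (0.0584). All 3 probes had higher values in both GO2 arrays than in both ID8G arrays. The probe A_55_P2501751 is annotated to another RefSeq transcript of Vcan than the rest. Taken as the mean of its tested probes, Vcan was called higher.

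**Figure D2:**
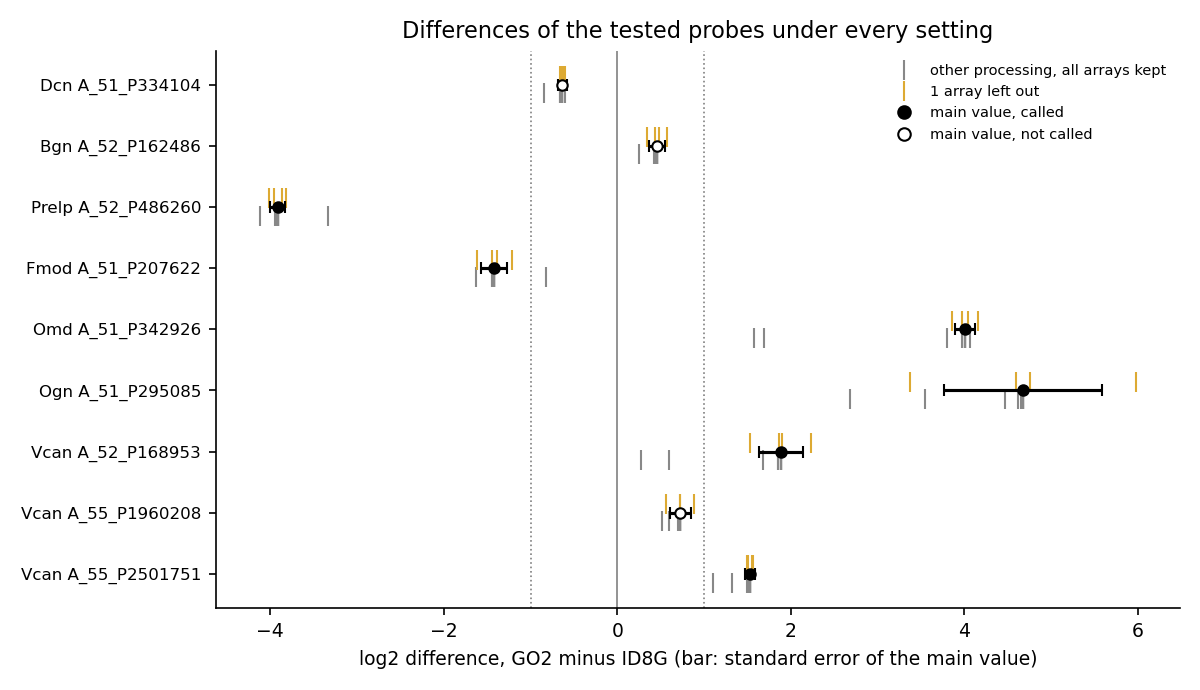
Log2 difference GO2 minus ID8G (horizontal axis) of the 9 tested member probes, with the standard error of the main value as a bar, gray ticks for other processing with all arrays kept and orange ticks for 1 array left out, and dotted lines at 2-fold. Prelp ranges from -4.12 to -3.34 and Dcn from -0.84 to -0.60 with all arrays kept, while Omd (1.57 to 4.06) and Ogn (2.68 to 4.68) spread widely on one side of 0.

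Several SLRP genes are neighbors in the mouse genome, and members of a cluster were set beside the genes that flank them, which were chosen after the values of the members were seen. On chromosome 1, Optc, Prelp and Fmod lie in a row and all 3 were called lower by their brightest probe. Optc (opticin, a class III SLRP of the eye) had a mean level of -2.78 in ID8G cells and was not well above background in GO2 cells. Its bound was at least 2.04-fold lower, and its fitted difference was -3.26 (limma adjusted p = 0.000465). Only 1 of the 2 Optc probes was called lower. Btg2, the gene after Fmod, was also called lower (difference -1.07), and Chit1 after it was called higher (1.61). On the other side Atp2b4 and Lax1 were not tested, and Zbed6 beyond them was not called (0.32).

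On chromosome 13, Ecm2, Aspn, Omd and Ogn lie in a row. Only Omd and Ogn of this row were higher in GO2 cells, and Ecm2 and Aspn were not well above background on any array. The tested flanking genes Bicd2, Ippk, Cenpp, Nol8 and Iars had differences from -0.36 to -0.00, and none was called. On chromosome 10, Dcn was the single tested gene of the row Dcn, Lum, Kera and Epyc, with a difference of -0.63. The tested flanking genes there were Btg1 (-0.60), Eea1 (-0.34), Atp2b1 (0.24) and Poc1b (0.23), and none was called. The link gene Hapln1, the neighbor of Vcan, was not well above background on any array.

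**Figure D3:**
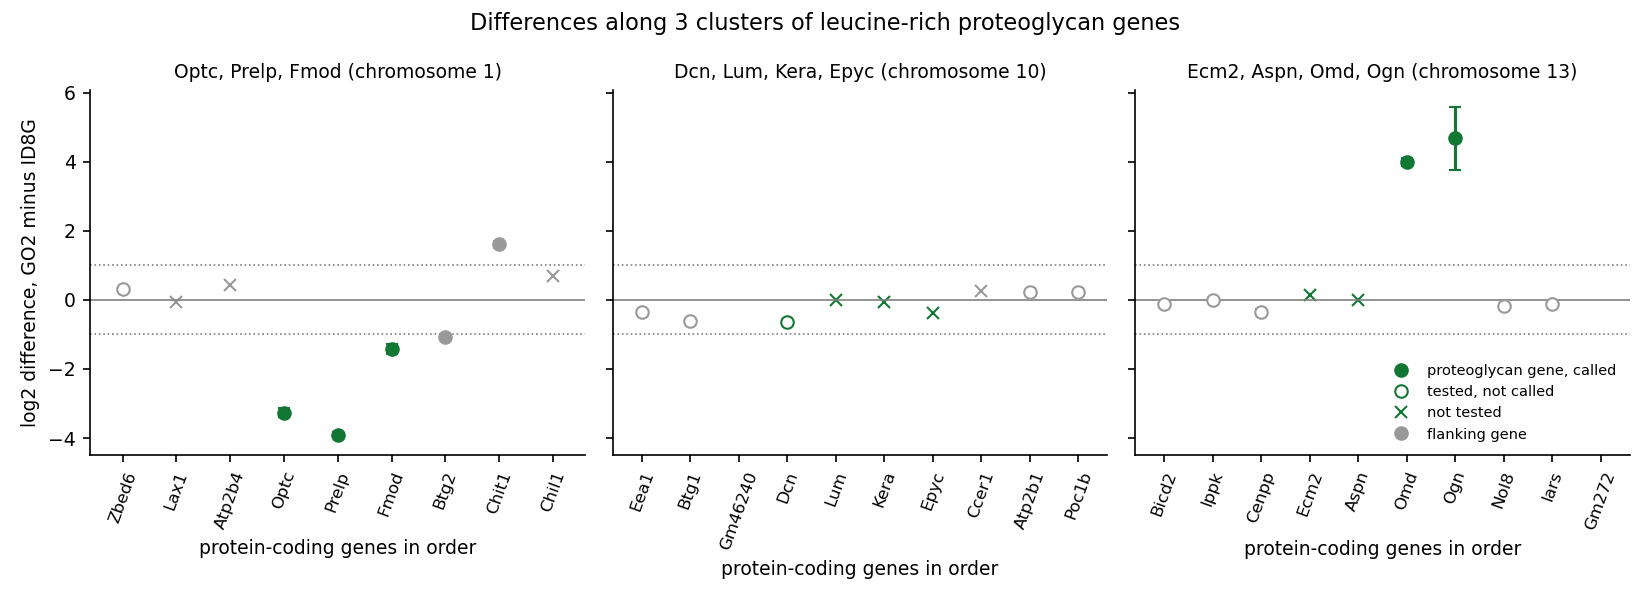
Log2 difference GO2 minus ID8G (vertical axis, bars are standard errors) for SLRP genes (green) and flanking protein-coding genes (gray) in their order along chromosomes 1, 10 and 13, with filled points for called, open points for tested and not called, and crosses for not tested. Optc, Prelp and Fmod lie between -3.92 and -1.42, and Omd and Ogn at 4.01 and 4.68. The values of Optc, Omd and Ogn are not measured sizes. Optc is not well above background in GO2 cells, and Omd and Ogn are not in ID8G cells.

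Among 8 other SLRPs, 3 were tested. Podnl1 (podocan-like 1) had a level of -5.70 and -6.00 in ID8G cells and 0.18 and 0.25 in GO2 cells. Its bound was at least 14.9-fold higher, and its fitted difference was 6.07 (limma adjusted p = 0.000195). Tsku (tsukushi) was not called (difference 0.13), and Chad was well above background on 1 ID8G array only and was not tested. Kera, Epyc, Nyx and Ecm2 were not well above background on any array, nor were Acan, Ncan and Bcan, the other members of the versican family.

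Genes that make, bind or cleave the members were counted by list, with 1 probe per gene. Of all 73 related genes, 49 were tested, 19 were called higher and 3 lower (4.51% and 3.34% of all probes tested were), with a median difference of 0.41 against -0.02 over all probes tested. Of these 49, 9 were well above background on no array of 1 line and passed the filter only through the other line. Except for Optc, that line was GO2, so being called higher already required signal there. With dim values raised to the floor of the array 16 related genes were called higher, and with spike-in scaling 14.

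Of the 22 enzymes of chondroitin and dermatan sulfate synthesis, 16 were tested, 2 were higher and 1 was lower (median 0.30). Chst11, a chondroitin 4-O-sulfotransferase, fell by a difference of -2.06 and Chst7 rose by 1.16. Dse, the epimerase that turns chondroitin into dermatan sulfate, was at least 1.67-fold higher. Of 6 keratan sulfate genes, 4 were tested. Chst1, which sulfates galactose in keratan sulfate, fell by a difference of -2.14, while Chst2 was at least 3.62-fold and Chst4 at least 1.26-fold higher. The median of that list was 0.48, or 0.11 with genes below background at their bound.

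Of the 11 genes of the hyaluronan network, 6 were tested and 2 were higher (median 0.22). These were the hyaluronan synthases Has2, at least 4.79-fold higher, and Has1, at least 1.32-fold higher. Of 6 versican-cleaving proteases 4 were tested and 3 were higher (median 1.76). Adamts1 rose by 1.05. Adamts4 and Adamts5 were called with a fitted difference of 2.48 each, but only 1 of the ID8G arrays was well above background, and with dim values raised to the floor the differences were 2.48 and 2.15.

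Of 10 ligands and receptors of SLRPs, 9 were tested and 3 were higher (median 0.58), namely Met by 1.28, Tlr2 by 1.05 and Lrp1 by 1.05. Of the 7 fibrillar collagen genes, whose products SLRPs bind, all were tested and 6 were higher (median 4.61, or 4.20 with genes at their bound). Col1a2 rose by 7.49, Col1a1 by 4.69 and Col5a2 at least 12.8-fold.

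**Figure D4:**
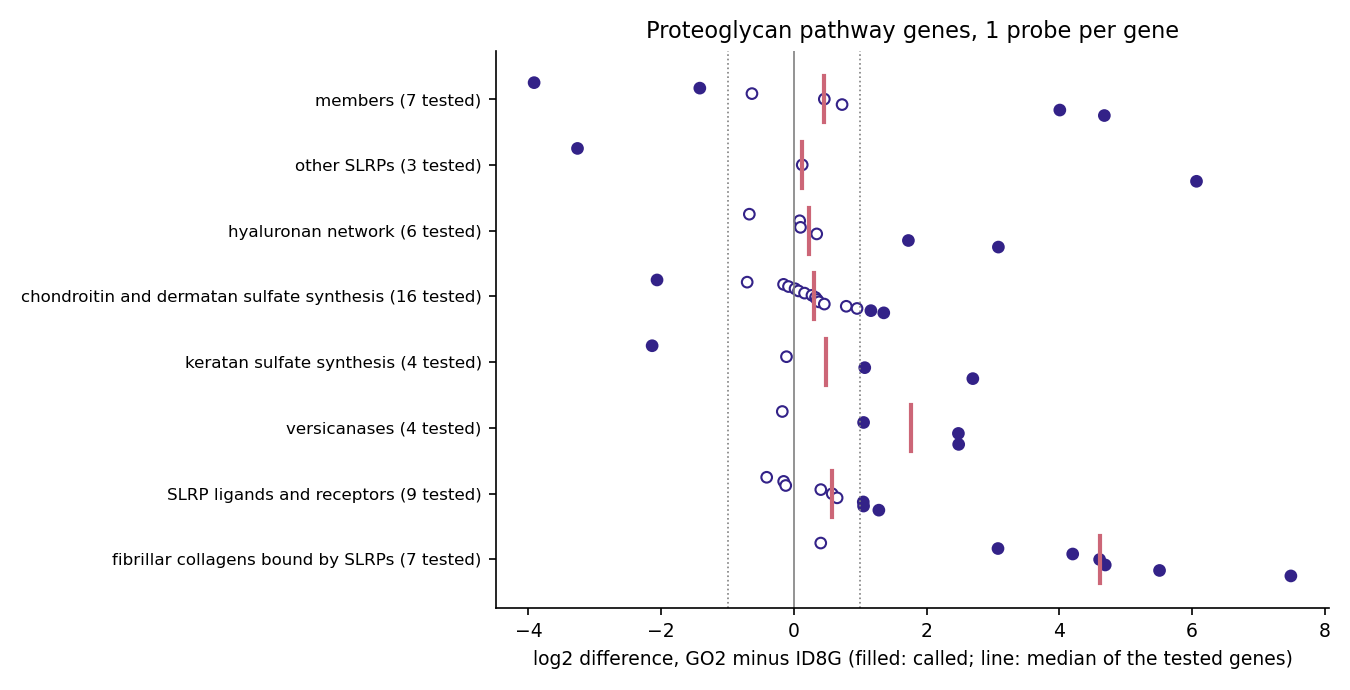
Log2 difference GO2 minus ID8G (horizontal axis) of each tested gene by list, 1 point per gene, filled where called, with a red line at the median of the tested genes of the list and dotted lines at 2-fold. The fibrillar collagens have a median of 4.61 and the members lie on both sides of 0.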

How the data were processed

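Total RNA of ID8G and GO2 cells (2 arrays each) was labeled with Cy3 and hybridized to SurePrint G3 Mouse GE arrays, 1 color per array. The authors deposited scanner files with the intensity of each spot, background-subtracted by Feature Extraction 11.5.1.1 and not scaled between arrays, together with flags that mark spots above background. The deposited log2 table, made with GeneSpring GX, matched the scanner values after scaling to the 75th percentile and subtracting the median of each probe (median absolute difference 0.000393, r = 1.00). Its column medians were 0.104, -0.0480, 0.0381 and -0.0486. Its scale, centering and direction are thus known, and 0 columns were unused. It served as an alternative.

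Here log2 processed intensity minus each array's 75th percentile over probes was used, with outlier spots left out and spots of a probe averaged. Control spots were excluded. Probes well above background on both ID8G arrays, both GO2 arrays or all of them were tested (28344) with limma 3.58.1 in R 4.3.3 and Benjamini-Hochberg adjustment. Figures were drawn with matplotlib 3.10.9 in python 3.11.15. The procedure was tested on simulated data. The precision is limited by the number of arrays.

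A probe at or below background in one line has a bound only. "At least" folds compare the mean of the brighter line with the mean, over arrays of the other line, of the higher of the probe's own value and the lowest signal well above background. Where a gene has several probes, the one with the highest mean level stood for it.

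Gene symbols came from the RefSeq table for GRCm38.p6, matched by accession (32994 of 56605 probes, 58.3%). The array was designed on mm9, so no coordinate of a probe is given, and the table served for names and gene order.

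The members and the gene lists were chosen with earlier results of these data known, so no test over a list was made. Named are all 10 members with all probes, at most the 3 called genes with the largest difference in each related list, and every other SLRP and hyalectan; flanking genes and markers are named beside them. Alternatives were normexp (offset 50), quantile, median and spike-in scaling, no filter or a filter on all 4 arrays, a floor for dim values, outlier spots kept, an intensity trend, the methods' t-test, limma treat at 2-fold, the replicate block, the deposited table, the mean of a gene's probes and each replicate left out.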

Additional observations from a re-analysis of the deposited data

How the results depend on the processing

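Over 17 alternative settings, 150 values of tested member probes were compared with the reported ones, of which 132 kept their direction and side of the threshold, 18 kept their direction but lost the call, and 0 reversed. In most of the 18 the difference was little changed and the adjusted p crossed the threshold. Reported were 2 members called higher and 2 lower, 19 related genes higher and 3 lower, and 1277 probes higher and 946 lower. Normexp left 1 member lower, 12 related genes higher, and 818 probes higher and 517 lower. Spike-in scaling, which moved the median of all probes from -0.02 to -0.23, gave 1433 probes lower. A filter on all 4 arrays left 0 members higher (limma; 0 also at an unadjusted p below 0.05 and 2-fold), since Omd and Ogn are then not tested, with 9 related genes, 666 probes higher and 606 lower. Limma treat gave 1 member higher, 1 lower, 12 related genes higher, 749 probes higher and 439 lower. The methods' t-test, with adjusted p-values, called 0 members and 0 related genes in either direction, and 0 probes higher and 3 lower. Without adjustment it called 1 member higher and 1 lower, 15 related genes higher and 3 lower, and 1001 and 728 probes. With 1 replicate left out, members called higher ranged from 1 to 2 and lower from 2 to 2, related genes from 17 to 20 and from 3 to 4, and probes from 1286 to 1628 and from 913 to 1407. The lone array of a line is then assumed to vary like the other line. Ogn was the member lost without either GO2 replicate, and Podn was gained without GO2 replicate 2. With the replicate block, 1250 probes were higher and 935 lower, and no member call changed. The adjusted p of Bgn became 0.0585. The numbers did not pair the samples (correlation of replicate differences 0.0273). Apart from the settings named, the cause of each change was not tested. Signal near background limits Omd, Ogn, Podn and the dimmest Vcan probe to bounds.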

Other observations

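Gene symbols well above background on all 4 arrays were compared by Euclidean distance over the 4 arrays, each probe centered on its mean. With close replicates this distance depends mainly on the difference between the lines, and shared regulation was not tested. Closest to the Vcan probe A_55_P2501751 (difference 1.53) was Ttc12 (distance 0.0189, difference 1.53), followed by Egr1 (0.0296, 1.56) and Pfn2 (0.0423, 1.56). Closest to Prelp were Tnnt2 (0.222), Krt23 (0.237) and Ripply1 (0.268), with differences from -3.80 to -3.73.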
